A study of Mus musculus with 2 samples.

Results

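Imprinted genes are expressed from only 1 of the 2 parental alleles, and 36 of them were followed in RNA of the VZ–SVZ, the germinal layers along the ventricle, of mouse cortex at E13.5. The 36 genes were taken by their symbols, all 36 were found in both files, and they make up a small part of the 21896 genes listed. One library came from Rcor2fl/fl embryos, the control, which carry floxed Rcor2 alleles, and 1 from Rcor2cko embryos, in which Cre recombinase driven by Nestin removes the floxed exons from neural progenitors and their descendants. Both genotypes were on a C57/BL6 background and taken at the same age. The number and sex of the embryos behind each library are not given in the sources used here. The study names floxed homozygotes with Nestin-Cre Rcor2cko, so by these names the controls carried no Cre. Cells outside the neural lineage, such as vessels, blood and meninges, are not targeted by this Cre.

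At an imprinted locus, DNA methylation laid down in the egg or the sperm at a control region marks 1 parental copy, and after fertilisation the mark is kept through the global loss of methylation in the early embryo, with the zinc finger protein ZFP57 and its cofactor TRIM28 bound at the methylated copy. Many imprinted genes lie in clusters in which a long noncoding RNA is expressed from the allele opposite to that of the neighbouring protein-coding genes. As a group they are known for roles in fetal growth, placenta and neural development. Of the 36 genes, 13 are classed as maternally and 21 as paternally expressed, and Grb10 and Gnas are set apart because their allele depends on the transcript or tissue. These classes are textbook knowledge and do not show that a gene is imprinted in this tissue. Ube3a, classed as maternal, is expressed from both copies in most cells other than neurons. The values are totals over both alleles, so neither a gain of expression from the silent allele nor a change of the active one can be read from them.

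The libraries were compared by FPKM, the fragments of a gene scaled to transcript length and to the fragments of the library, which makes levels comparable between genes as well. A change is always log2 of (FPKM + 0.1) in Rcor2cko divided by the same in Rcor2fl/fl. With 1 library per genotype no test of the genotypes was possible, and a difference has no replicate check. Low FPKM values lie on steps of whole fragments, from which scaling totals of 18841686 fragments in the Rcor2fl/fl and 25480138 in the Rcor2cko library were recovered. Brackets after a change, where given, hold the 95% exact interval of the log2 ratio of these fragments, without the added 0.1, which covers counting error only. For a transcript of 2000 nt, the limit that 0 fragments allow is 0.0882 FPKM in the control and 0.0654 FPKM in the Rcor2cko library.

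Some features of the libraries bear on all of the values below. Rcor2, the deleted gene, had 90.6 FPKM in Rcor2fl/fl and 55.7 FPKM in Rcor2cko, which is −0.70 on the log2 scale. This value covers the whole gene, while only the floxed exons are removed. The study reported that RNA over the floxed exons was absent in Rcor2cko cortex at this age, and that the protein was depleted. Xist, the noncoding RNA that silences an X chromosome in females, had 177 FPKM in Rcor2fl/fl but 0.109 FPKM in Rcor2cko, and the Y-linked Eif2s3y was at 0 and 19.8 FPKM, so the libraries also differ in sex-linked transcripts. None of the 36 imprinted genes lies on X or Y. Of the marker lists, cortical progenitors (8 genes, summed level 873 FPKM in Rcor2fl/fl and 1021 FPKM in Rcor2cko) and postmitotic neurons (7 genes, 1606 and 1548 FPKM) had no gene past 1.5-fold. Of the progenitor markers 5 of 8 were lower, with a median log2 change of −0.08, and without Fabp7 their sum was 501 and 482 FPKM. Choroid plexus markers were higher in Rcor2cko in all 7 genes, with Ttr listed at 0 in the control and at 57.8 FPKM in Rcor2cko, and their sum was 1.04 and 62.9 FPKM. Ventral telencephalic neuron markers were past 1.5-fold higher in 7 of 8 genes (sums 32.1 and 74.4 FPKM) and microglial markers in 4 of 7 (19.2 and 29.3 FPKM). Endothelial and pericyte markers had 0 of 11 genes of at least 1 FPKM past 1.5-fold, but 10 of these 11 were higher, with a median log2 change of 0.16. Their sum over all 12 markers was 48.0 and 54.5 FPKM. Erythroid markers had 1 of 7 past 1.5-fold, lower, and 5 of the 7 were lower at any fold. Over all 10 erythroid markers the sum was 528 and 445 FPKM. Of 11 genes of meninges and mesenchyme (sums 8.22 and 5.17 FPKM) only Zic1 reached 1 FPKM, at 5.52 and 1.69 FPKM. The other 10 summed to 2.71 and 3.48 FPKM, 7 of them higher. The part of sex and of these other cell types in the results below was not tested, and in bulk RNA a change in the number of cells of a type and a change in RNA per cell cannot be told apart.

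The imprinted genes leaned towards higher values in the Rcor2cko library. Of the 36, 27 reached 1 FPKM, the filter used, each of them in both libraries. Of these 27, 6 were higher in Rcor2cko by more than 1.5-fold, namely H19, Sgce, Rian, Magel2, Mest and Meg3. None was lower by more than 1.5-fold. Over all 11777 genes at or above this level, 3.79% were higher and 1.76% were lower by more than 1.5-fold, against 22.2% and 0 of the imprinted genes. At any fold, 22 of 27 imprinted genes (81.5%) were higher, against 42.4% of all genes. These are counts of FPKM, and for 3 of the genes, Meg3, Gnas and Airn, the direction in fragments is not fixed by the files, as described below. Without these 3, 5 of 24 genes (20.8%) were past 1.5-fold higher and 19 of 24 (79.2%) were higher at any fold, while 3.93% of all genes whose direction is fixed were past 1.5-fold higher. The shares of the 27 count Meg3, Rian and Mirg as separate genes, although they are generally regarded as pieces of 1 long transcript. The median log2 change was 0.20 for the 27 imprinted genes and −0.03 for all genes, whose quartiles were −0.15 and 0.09. Over all 36 genes, those below the filter included, the median was 0.19, with 26 above 0 and 10 below. Among the genes below the filter, Zim1 and Rtl1 were within 0.01 of 0, and Phlda2 and Ascl2 rest on 1 fragment each.

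**Figure D1:**
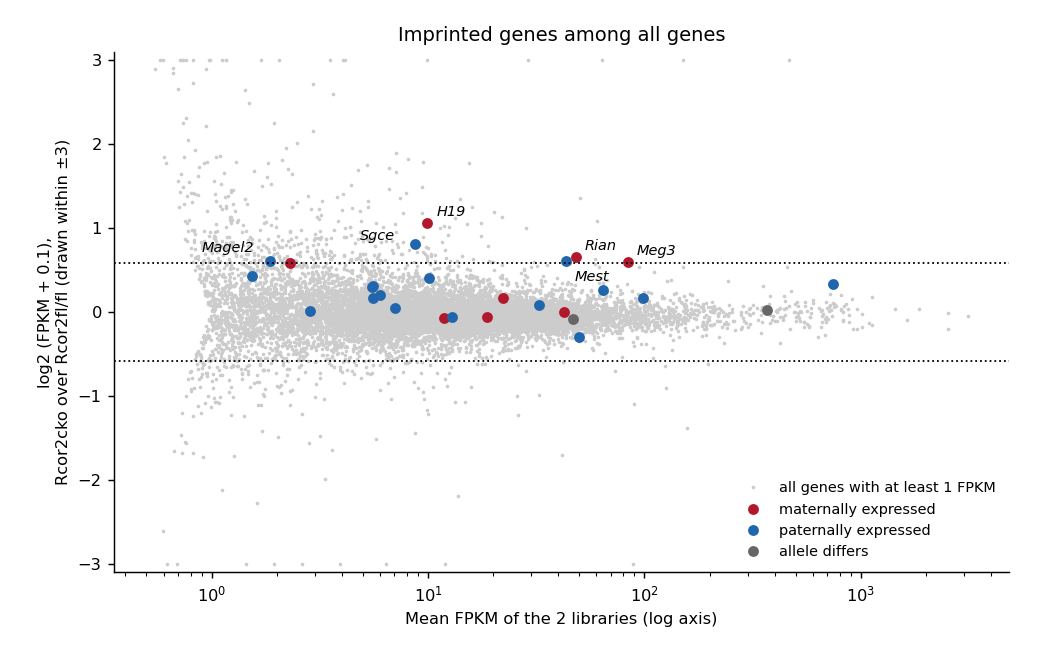
Mean FPKM of both libraries (log axis) against the log2 change for the 11777 genes that reached 1 FPKM in either library (grey), with the 27 imprinted genes among them coloured by expressed allele. Dotted lines mark 1.5-fold, and the 6 labelled imprinted genes lie above the upper line while none lies below the lower one.

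The same lean was seen in fragments. For 17 of the 27 genes, those with 1 annotated transcript of at least 1000 nt, the fragments can be recovered without ambiguity. The exact interval lay above 0 in 10 of these 17 (58.8%), below 0 in 1, Plagl1, and included 0 in 6. Over the 8460 genes for which the same was computed, 14% lay above and 23.2% below 0. By a stricter measure, the 95% FPKM intervals given in the files did not overlap and were higher in Rcor2cko for 4 of 27 genes, H19, Rian, Sgce and Mest, against 2.26% of all genes, and lower for none, against 1.21%.

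Both paternally and maternally expressed genes had medians above that of all genes, and no test of a difference between them was possible. The 17 paternally expressed genes above the filter had a median log2 change of 0.26, ranging from −0.30 to 0.81, with 15 above 0 and 3 past 1.5-fold (Sgce, Mest and Magel2). The 8 maternally expressed genes had a median of 0.38, ranging from −0.07 to 1.06, with 6 above 0 and also 3 past 1.5-fold (H19, Rian and Meg3). Without Meg3, 5 of 7 were above 0, 2 were past 1.5-fold and the median was 0.17. Over all genes above the filter, 42.4% were above 0 and 3.79% were past 1.5-fold higher. The maternal median rests on the filter, for it was also 0.17 when all 13 genes were counted. It also draws on 1 locus, Dlk1-Meg3, for 3 of its 8 genes.

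**Figure D2:**
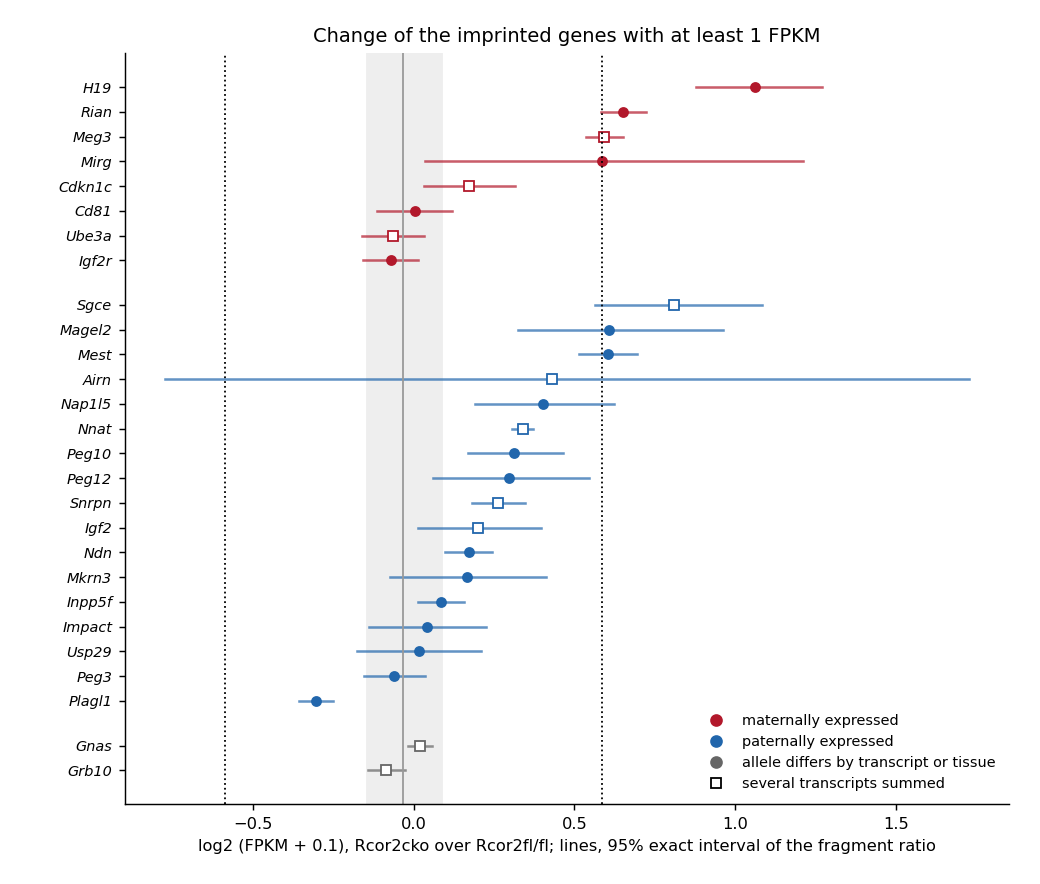
Log2 change of the 27 imprinted genes with at least 1 FPKM, by expressed allele, with lines for the 95% exact interval of the fragment ratio; open squares are genes with several transcripts, for which the interval leaves out how fragments are shared among them. Dotted lines mark 1.5-fold, the grey band the quartiles of all genes. The whole intervals of H19, Rian, Mest, Sgce, Meg3, Magel2, Nnat, Nap1l5, Snrpn, Peg10 and Ndn lie right of the band, and that of Plagl1 lies left of it. The direction of Meg3 in fragments is not fixed.

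The largest rise above the filter was that of H19, a maternally expressed noncoding RNA at chr7:149761434-149764048 (mm9, minus strand, 5 exons). It had 6.40 FPKM in Rcor2fl/fl and 13.46 FPKM in Rcor2cko (292 and 828 fragments), and its log2 change was 1.06 (0.88 to 1.27). The levels lay apart in both kinds of interval. Of all genes, 98.8% had a smaller log2 change. Igf2, the fetal growth factor encoded next to H19 and expressed from the paternal copy, had 5.58 and 6.42 FPKM, a log2 change of 0.20 (0.01 to 0.40), a difference close to the edge of counting error. Of its 3 listed transcripts, 1 start site gave 92.7% of the Igf2 FPKM in the control. H19 is the host of the miR-675 hairpin, whose mature forms, shown because H19 is their precursor, carry their seeds (bases 2 to 8) in capitals (RefSeq):
mmu-miR-675-5p: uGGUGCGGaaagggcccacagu
mmu-miR-675-3p: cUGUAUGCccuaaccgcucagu

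At the Dlk1-Meg3 locus the maternally expressed noncoding RNAs Rian and Mirg were higher in Rcor2cko, Rian past 1.5-fold, and so was the FPKM of Meg3, with a limit given below. Meg3 (chr12:110779211-110809936), Rian (chr12:110842155-110899919) and Mirg (chr12:110973191-110987665) lie one after the other on the plus strand and are generally regarded as pieces of 1 long transcript. Rian, the host of many small nucleolar RNAs, had 37.6 FPKM in Rcor2fl/fl and 59.0 FPKM in Rcor2cko (2396 and 5080 fragments), and its log2 change was 0.65 (0.58 to 0.72). Mirg, a microRNA host, was at 1.83 and 2.79 FPKM, with only 38 and 78 fragments, and its change of 0.58 (0.03 to 1.21) lay just short of the 1.5-fold line. Meg3 was at 66.7 and 100.7 FPKM, a change of 0.59.

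The Meg3 value carries a limit that Rian and Mirg, with 1 transcript each, do not. In the control, the Meg3 transcript of 1913 nt held 71.8% of its FPKM but 28.0% of its 5532 fragments, and the transcript of 11422 nt held 17.2% of the FPKM and 43.8% of the fragments. The Rcor2cko file gives the gene as 1 value, which corresponds to anything between 4392 and 28784 fragments according to the transcripts assumed. Scaled to the library totals, that is 0.587 to 3.85 times the control. The direction of Meg3 in fragments is therefore not fixed by the files, and its FPKM depends on the assignment of fragments to transcripts. The same holds for Gnas and Airn, while for the other 9 of the 12 genes with several transcripts the direction was the same at both ends.

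The paternally expressed partners at this locus were scarce. Dlk1, a membrane protein related to Notch ligands, was at 0.617 and 0.814 FPKM, a change of 0.35 (−0.13 to 0.95) that lay within counting error. Rtl1, a retrotransposon-derived gene, was at 0.0948 and 0.0936 FPKM, 9 and 12 fragments. A transcript annotated in the Rtl1 locus, 6430411K18Rik, had 4 and 18 fragments (log2 interval 0.14 to 3.77). Whether the authors' counting used strand is not given in the sources used here, so reads of Rtl1 and of transcripts antisense to it cannot be told apart.

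The microRNAs at these loci were not measurable. The 23 hairpins listed at the loci of H19 (1), Meg3 (2), Rian (3), Mirg (10) and Rtl1 (7), by position only, were at 0 in both libraries. They are at most 124 nt long, shorter than the offset of 194 nt by which the FPKM of the control shortens every transcript, so 0 says nothing of their level. From 15 of the 16 hairpins outside Rtl1, RefSeq gives 28 mature miRNAs with 28 different seeds. One for each of Meg3 and Rian and 3 from Mirg are shown, seeds in capitals, the last 3 because their seeds are rich in A and U and yet differ from one another:
mmu-miR-770-5p (Meg3): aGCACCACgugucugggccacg
mmu-miR-370-3p (Rian): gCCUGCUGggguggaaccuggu
mmu-miR-154-3p (Mirg): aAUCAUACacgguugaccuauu
mmu-miR-369-3p (Mirg): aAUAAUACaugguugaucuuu
mmu-miR-410-3p (Mirg): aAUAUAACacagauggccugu

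The Peg10-Sgce pair of chromosome 6 is transcribed from a shared promoter region, Sgce (epsilon-sarcoglycan, chr6:4624350-4697204) on the minus and Peg10 (a retrotransposon-derived gene, chr6:4697306-4710514) on the plus strand. Sgce had 6.27 FPKM in Rcor2fl/fl and 11.1 FPKM in Rcor2cko, and its log2 change was 0.81 (0.57 to 1.08), from 178 fragments in the control and 422 to 452 in Rcor2cko. Peg10 was at 4.98 and 6.20 FPKM, 607 and 1021 fragments, a change of 0.31 (0.17 to 0.46). Both were higher, and the interval of Sgce lay above that of Peg10. Asb4, maternally expressed in the same region, was below the filter at 0.446 and 0.916 FPKM, 26 and 72 fragments (log2 interval 0.37 to 1.74).

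At the Snrpn-Ube3a locus, the Prader-Willi and Angelman region of mouse, all 5 paternally expressed genes were higher and the maternally expressed one was not. Magel2, a MAGE family gene of 1 exon (chr7:69521865-69526526), had 1.46 and 2.28 FPKM (123 and 259 fragments), and its log2 change was 0.61 (0.33 to 0.96). Snrpn, an mRNA splicing factor of neurons, was at 58.2 and 69.9 FPKM, a change of 0.26 (0.18 to 0.35). Ndn (necdin), the highest of the locus at 92.3 and 104.0 FPKM, differed by 0.17 (0.10 to 0.24). Peg12 was at 4.95 and 6.10 FPKM, a change of 0.30 (0.06 to 0.55). Mkrn3, which encodes a RING finger protein, was at 5.26 and 5.91 FPKM, and its change of 0.17 (−0.07 to 0.41) lay within counting error. Only Magel2 passed 1.5-fold. Ube3a, a ubiquitin ligase expressed from the maternal copy in neurons but from both copies in most other cells, was at 19.2 and 18.3 FPKM, a change of −0.06.

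**Figure D3:**
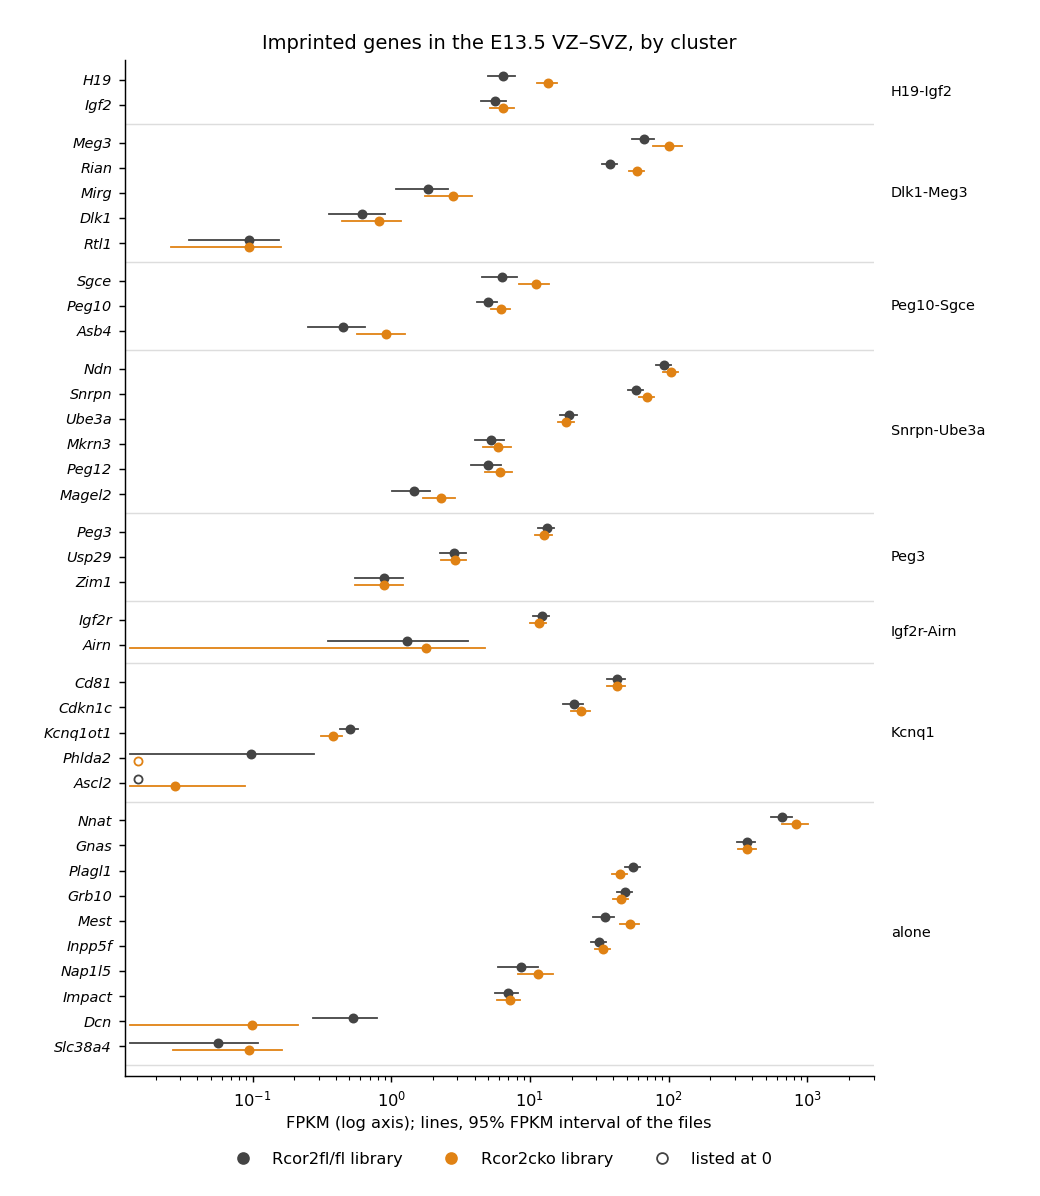
FPKM of each of the 36 imprinted genes in the Rcor2fl/fl (grey) and Rcor2cko (orange) library, on a log axis, grouped by cluster, with the 95% FPKM interval of the files. Open circles are listed at 0, and lines that reach the left edge extend to 0. H19, Rian, Sgce and Mest are the genes above the filter with intervals that do not overlap.

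In the Peg3, Igf2r-Airn and Kcnq1 clusters no gene passed 1.5-fold among those above the filter. Peg3, a zinc finger protein, had 13.2 and 12.7 FPKM, a log2 change of −0.06, and Usp29, which starts from the opposite strand of the same promoter region, was at 2.85 and 2.88 FPKM, a change of 0.02. Zim1, their maternally expressed neighbour, was at 0.883 and 0.880 FPKM. Igf2r, the receptor that clears IGF2 from the cell surface, was at 12.1 and 11.5 FPKM, a change of −0.07 (−0.16 to 0.01). Airn, the paternal noncoding RNA that overlaps Igf2r on the opposite strand, was at 1.29 and 1.78 FPKM from 17 fragments in the control, and its FPKM interval in Rcor2cko began at 0. No difference can be read for Airn at this depth.

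In the Kcnq1 cluster, Cdkn1c (p57), an inhibitor of the cell cycle that is expressed from the maternal copy, had 20.8 and 23.5 FPKM, a log2 change of 0.17 (0.03 to 0.32). Cd81, a tetraspanin, was at 42.3 FPKM in both libraries, a change of 0.00 (−0.11 to 0.12). Kcnq1ot1, the paternal noncoding RNA of the cluster, was below the filter at 0.502 and 0.377 FPKM, yet from 788 and 800 fragments its change of −0.34 (−0.56 to −0.27) was larger than counting error. It overlaps Kcnq1 on the opposite strand, so that reads of both cannot be told apart here. Phlda2 and Ascl2 are genes of the placenta. Phlda2 had 1 and 0 fragments (0.0978 and 0 FPKM) and Ascl2 0 and 1 (0 and 0.0278 FPKM), so no difference can be read for them.

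Of the 10 genes that were not grouped in a cluster, Mest differed most among those above the filter. Mest, a paternally expressed gene of the hydrolase fold family (chr6:30673547-30698457), had 34.5 FPKM in Rcor2fl/fl and 52.4 FPKM in Rcor2cko (1526 and 3128 fragments), and its log2 change was 0.60 (0.52 to 0.69). Nnat (neuronatin), the most abundant of the 36, was at 657 and 831 FPKM, a change of 0.34 (0.31 to 0.37). Nap1l5, a nucleosome assembly protein relative, was at 8.68 and 11.5 FPKM, a change of 0.40 (0.19 to 0.62). These 3 paternally expressed genes were higher by more than counting error, and Mest alone was past 1.5-fold.

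Plagl1 (Zac1), a zinc finger transcription factor that restrains proliferation, was lower in Rcor2cko. It had 55.4 and 44.9 FPKM (5286 and 5784 fragments), and its log2 change was −0.30 (−0.36 to −0.25). Inpp5f was at 31.5 and 33.4 FPKM, a change of 0.09 (0.01 to 0.16), and Impact at 6.93 and 7.14 FPKM, a change of 0.04. Gnas, the stimulatory G protein alpha locus, was at 365 and 370 FPKM, a change of 0.02, and Grb10, an adaptor that restrains insulin and IGF signalling, at 48.4 and 45.6 FPKM, a change of −0.09 (−0.14 to −0.03). Both differed by little. Slc38a4, an amino acid transporter, had 4 and 9 fragments (0.0568 and 0.0947 FPKM). Dcn (decorin), an extracellular matrix gene of fibroblasts, was at 0.533 and 0.0985 FPKM, 17 and 4 fragments (log2 interval −4.47 to −0.82), below the filter in both libraries. Dcn is not among the 11 markers of meninges and mesenchyme given above.

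Genes with several start sites were mostly read from 1 of them in the control, the only library resolved by transcript. In Grb10, 1 of 2 transcripts gave 99.3% of the FPKM. Gnas had 8 transcripts from 5 starts, and 2 of them held 53.9% and 43.3% of its FPKM. In Snrpn, 1 of 3 starts gave 84.4%. Of the genes drawn, the shares by FPKM and by fragments differed most in Meg3.

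**Figure D4:**
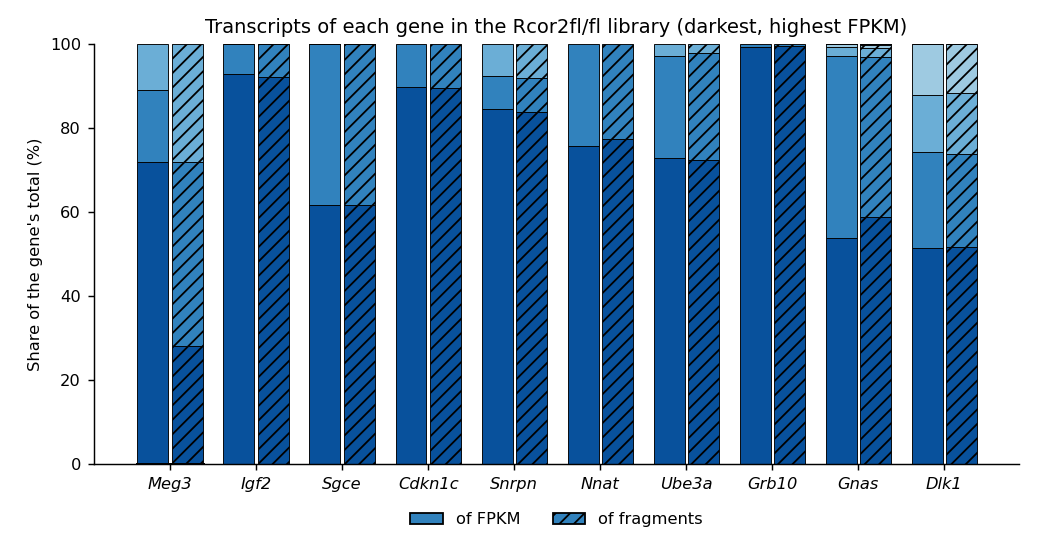
Share of each gene's FPKM (plain bars) and fragments (hatched bars) held by each of its transcripts in the Rcor2fl/fl library, for 10 imprinted genes with several transcripts, darkest for the transcript with the highest FPKM. In Meg3 that transcript holds 71.8% of the FPKM and 28.0% of the fragments.

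The imprinted genes stood above their flanking genes at some loci and not at others. The 3 nearest genes of at least 1 FPKM on each side of a cluster, known imprinted genes left out, came to 37 different genes over the 7 clusters, with a median log2 change of −0.03. Of these 37, Lsp1 and Mrgpre were higher and Chrna7 was lower by more than 1.5-fold, against 3.79% and 1.76% of all genes. At Dlk1-Meg3, the flanks had a median of −0.17 and ranged from −0.27 to 0.36, below Rian and Mirg and below the FPKM change of Meg3. At Snrpn-Ube3a the flanking median was −0.10, with a range from −0.72 to 0.51, against 0.26 for the 5 paternally expressed genes. The flanking Gabra5 (0.51) was above all of these 5 except Magel2 (0.61). At Peg10-Sgce it was 0.23, with none of the 6 past 1.5-fold, and Sgce was above all of them, but Peg10 was below Bet1 (0.45) and Gng11 (0.40). Next to H19 and Igf2 the flanks had a median of 0.23, below H19 but above Igf2, and they include Lsp1 and Mrgpre, which reached 1 FPKM only in Rcor2cko. At Kcnq1, which shares 5 of these flanks, the flanking median was 0.20, above that of its imprinted genes (0.09). The way of choosing neighbours was set after values had been seen, and the distances reach 2997 kb.

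**Figure D5:**
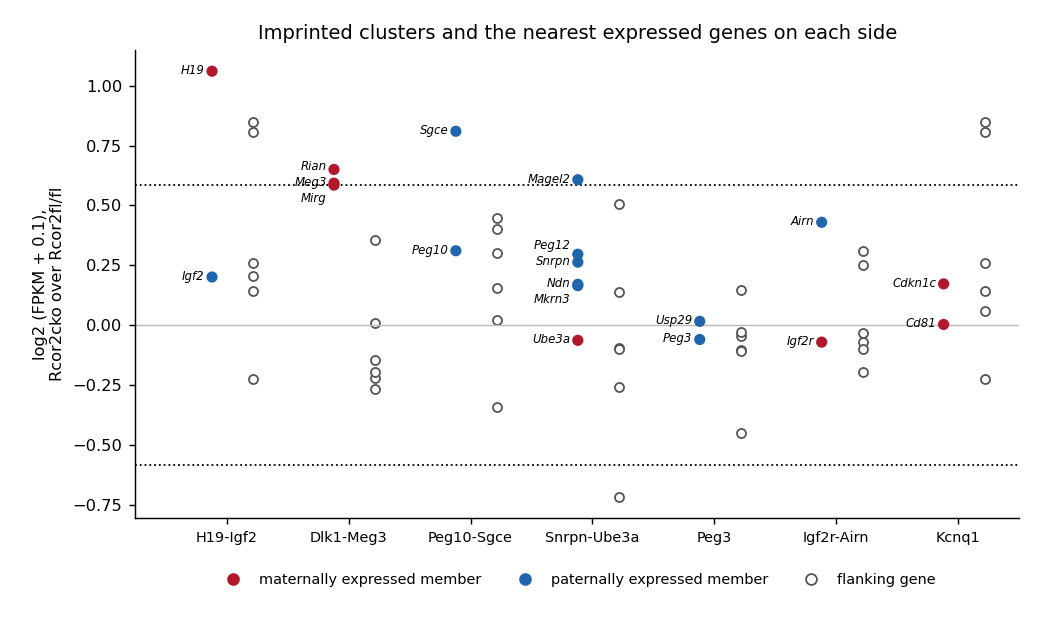
Log2 change of the imprinted genes with at least 1 FPKM (filled, named, coloured by expressed allele) and of the 3 nearest expressed genes on each side (open circles) for 7 clusters. Dotted lines mark 1.5-fold. H19, Sgce, Rian and Mirg lie above all of their flanking genes, as does the FPKM value of Meg3.

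The start sites of the genes past 1.5-fold differed widely in base composition. RefSeq windows of 300 bases around an annotated start were found for 29 of the 36 genes (45 windows, each matched once and exactly to mm9), and for 4 of the 6. These 4 are shown from 5′ to 3′ on the strand of the gene, with the hexamer TGCCGC, the core of the ZFP57 motif, in capitals on either strand (GCGGCA on the other):
Meg3, chr12:110778956-110779255, plus strand: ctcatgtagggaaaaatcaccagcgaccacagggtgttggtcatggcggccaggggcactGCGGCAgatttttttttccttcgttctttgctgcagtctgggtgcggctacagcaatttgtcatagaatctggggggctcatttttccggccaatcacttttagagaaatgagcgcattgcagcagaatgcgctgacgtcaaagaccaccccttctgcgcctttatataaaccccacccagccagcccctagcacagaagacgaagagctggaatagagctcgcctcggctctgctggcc
Rian, chr12:110841905-110842204, plus strand: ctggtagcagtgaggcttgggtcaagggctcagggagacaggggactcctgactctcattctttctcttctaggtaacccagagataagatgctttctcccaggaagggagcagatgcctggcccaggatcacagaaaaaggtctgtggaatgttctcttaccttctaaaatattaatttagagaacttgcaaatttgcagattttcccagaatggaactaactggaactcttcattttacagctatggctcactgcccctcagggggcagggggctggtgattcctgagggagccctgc
Mest, chr6:30687800-30688099, plus strand: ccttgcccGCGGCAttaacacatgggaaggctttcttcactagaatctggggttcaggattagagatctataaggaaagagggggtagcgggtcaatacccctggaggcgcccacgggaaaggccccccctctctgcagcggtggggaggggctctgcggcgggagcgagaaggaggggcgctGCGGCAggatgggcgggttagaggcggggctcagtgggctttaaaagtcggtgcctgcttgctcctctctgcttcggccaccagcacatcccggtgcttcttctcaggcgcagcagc
Magel2, chr7:69521615-69521914, plus strand: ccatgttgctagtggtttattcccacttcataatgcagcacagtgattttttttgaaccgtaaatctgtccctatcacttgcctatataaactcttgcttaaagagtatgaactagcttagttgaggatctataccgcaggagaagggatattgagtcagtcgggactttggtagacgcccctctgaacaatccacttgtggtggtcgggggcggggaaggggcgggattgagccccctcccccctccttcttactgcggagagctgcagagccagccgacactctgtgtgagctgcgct
Meg3 has 13 CpG and 1 match, Rian 0 CpG and 0 matches, Mest 17 CpG and 2 matches, and Magel2 10 CpG and 0 matches. Meg3 and Mest have further windows that are not shown, without a match at a second Meg3 start (1 CpG) and at a Mest start further upstream (8 CpG), and with the same 2 matches 3 bases from the Mest window shown. Over all windows, TGCCGC stood in 22.2% of those of imprinted genes (10 of 45, from 9 of 29 genes) and in 11.6% of all 32851 windows, GCCATCTT (the YY1 motif) in 2.22% and 2.75%, and CAGCACC (a REST half-site) in 8.89% and 7.14%. All were searched on both strands, and TGCCGC contains a CpG, of which the windows held a median of 13 for imprinted genes and of 7 over all. A match is a string of letters and shows no binding.

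A second list of imprinted genes was close to the background of all genes. Of 44 further imprinted genes, 41 were in the files, 21 passed the filter, none was past 1.5-fold, and their median log2 change was −0.01, 10 above 0 and 11 below. Over both lists, 6 of 48 genes (12.5%) were past 1.5-fold higher in FPKM, Meg3 among them, against 3.79% of all genes. At any fold 32 of 48 (66.7%) were higher, Meg3, Gnas and Airn among them, against 42.4% of all genes. Of 25 regulators of imprinting, 23 passed the filter and none was past 1.5-fold (median −0.03). Among these, the de novo DNA methyltransferase Dnmt3a had 12.2 and 16.0 FPKM, a log2 change of 0.39. Dnmt3b was at 1.36 and 1.04 FPKM, and its change of −0.36 (−0.80 to 0.02) lay within counting error. Zfp57 was at 95.03 and 112 FPKM, a change of 0.23. Its cofactor Trim28 was at 123 and 109 FPKM, a change of −0.18 (−0.22 to −0.13). Dnmt3a had 2046 fragments in the control and between 2129 and 3887 in Rcor2cko, and Zfp57 had 4127 and between 4307 and 7105. Scaled to the library totals, both ranges lie on both sides of the control. The direction of Dnmt3a and Zfp57 in fragments is therefore not fixed, as for Meg3. Kdm1a, the demethylase that RCOR proteins bind, was at 83.7 and 81.1 FPKM. In the IGF axis, with 11 of 12 genes above the filter, only Igfbp3, a binding protein of IGFs, was past 1.5-fold, at 18.01 and 8.54 FPKM, a change of −1.07. The median of that list was −0.08, and Igf1r, the receptor through which IGF2 signals, differed by −0.10.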

How the data were processed

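RNA of the E13.5 VZ–SVZ was isolated with RNeasy columns and sequenced from a stranded mRNA kit, 1 library per genotype. The submitters' processing notes name TopHat 1.3.3 and Cufflinks 1.2.0, and the build was mm9. The authors deposited FPKM values, per RefSeq transcript for Rcor2fl/fl (27641 rows) and per gene for Rcor2cko (21896 rows), with 95% intervals, whose half-widths were combined over transcripts as the root of summed squares. Rows with a status other than OK numbered 281 and 93.

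Transcripts were summed per gene, and those reaching 1 FPKM in either library were compared as log2(FPKM + 0.1), counted above 1.5-fold. The added 0.1 understates the change of low genes. Fragments were recovered from the FPKM steps (offsets 194 and 200.9 nt). Of the values up to 100 fragments, 99.3% of 4013 and 99.4% of 3950 were whole within 0.1. For a gene with several transcripts the exact (Clopper-Pearson) interval uses the lowest fragments possible. Intervals compare these 2 libraries. Positions are from GENCODE vM1 on NCBIM37 (mm9), 35 of 36 genes matched, start windows from RefSeq (GRCm38.p6, placed on mm9 by exact match). Steps were tested on simulated data, in Python 3.11.15, numpy 2.4.6, pandas 2.3.3, scipy 1.17.1 and matplotlib 3.10.9.

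The imprinted genes, the other lists and their rules were chosen with earlier results of these data known. All 36 genes are given. From the other lists, only genes past 1.5-fold and a few chosen for their role are named. E15.5 was not analysed here.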

Additional observations from a re-analysis of the deposited data

How the results depend on the processing

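The alternatives were other pseudocounts, 4 scalings, other filters, a fold above 2, the highest row per gene, separate 95% FPKM intervals, rows with status OK, and leaving out haemoglobin, mitochondrial, ribosomal protein and histone genes. Of the alternatives, 9 can alter a gene's ratio, and the others only decide which genes are counted. Of the 27 genes, 24 kept the sign of their change under these 9, and Peg3, Ube3a and Usp29, all near 0, did not. No scaling moved the median of all genes by more than 0.1. Without a filter, 2 genes were lower by more than 1.5-fold (Dcn and Phlda2, the latter from 1 fragment), against 3.07% of all genes, and the maternal median was 0.17, as it was at 5 FPKM or more. With the highest row per gene, which drops control transcripts only and so raises genes with several, the median of all imprinted genes was 0.33 and the maternal median 0.49. Only 1 gene, H19, passed a fold above 2, against 1.38% of all genes. With genes of 1 transcript only, the maternal median was 0.58, and without Meg3, Gnas and Airn 5 genes stayed past 1.5-fold. Both were chosen after seeing the data. The highest row also took Sgce to 1.495, Meg3 to 1.07, Gnas to 0.91, Nnat to 0.74 and Ube3a to 0.39. H19 ranged from 0.97 to 1.12, Rian from 0.64 to 0.71, Mest from 0.59 to 0.67, Magel2 from 0.41 to 0.67 and Mirg from 0.42 to 0.65. Magel2 passed 1.5-fold in 7 of the 9 and Mirg in 6. No paired analysis was possible because each genotype has 1 library, and for the same reason no library could be left out. Depth limits Airn, Mirg, Dlk1, Dcn, Slc38a4, Phlda2, Ascl2 and Rtl1.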
